A study of Medicago truncatula with 18 samples.

Results

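Of the 50444 genes of the Medicago truncatula Mt4.0v2 transcriptome, 50 had a lower mean leaf transcript abundance in long days (LD) than in short days (SD) at each of the 3 sampled times. They were chosen by d, the log2 of the LD mean plus 1 over the SD mean plus 1, in TPM, the length-scaled share of a transcript in its library. A gene entered when d was -1 or less at ZT0, ZT2 and ZT4, where ZT counts hours after lights on. Under this rule 51 genes qualified, and MtLUXb (Medtr7g089010), one of 3 genes set aside by name, was left out.

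The plants were of the cultivar Jester, an annual model legume, and all came from vernalised seed and spent their first 10 days in SD (8 h of light). LD plants were then moved to 16 h of light with the time of lights on unchanged, while SD plants stayed in 8 h days. Experiment 1 gave LD and SD leaves at ZT0 and ZT2 from plants 13 days old, after 3 days of LD, and experiment 2 gave LD and SD leaves at ZT4 from plants 15 days old, after 5 days of LD. Each of the 6 groups had 3 libraries, and each library pooled the first trifoliate leaf of 2 non-adjacent plants. ScriptSeq libraries were made in experiment 1 and TruSeq Stranded mRNA libraries in experiment 2, so that at ZT4 the time, plant age, days in LD and library kit cannot be told apart.

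The plant circadian clock is a loop of transcription factors that repress one another in turn through the day. In Arabidopsis thaliana, the pseudo-response regulators (PRRs) are repressors made in sequence from morning to evening, and among their targets is the morning gene LHY, while the evening complex of ELF3, ELF4 and LUX acts at night. Through this clock and through light receptors, leaves measure day length and control the FT genes that promote flowering. Among the 50 genes, 7 had an annotation in the sources used here, the study's candidate tables and results text. These were 4 clock genes (MtPRR37a, MtPRR37b, MtPRR59c and Medtr7g012790) and 3 genes of transcriptional regulators (Medtr7g105780, Medtr8g026960 and Medtr5g016750). The other 43 carried no annotation in those sources and are given by identifier. Those sources mostly pick out genes with a possible part in flowering or regulation. The kinds of the 7 therefore do not describe the 50.

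Total estimated counts ran from 18009808 to 19560647 per library in experiment 1 and from 20690658 to 23201592 in experiment 2. No library looked like a copy of another, since each pair within a group had a chi-square per gene of at least 2.47. The 5 listed leaf genes (chlorophyll a-b binding proteins and the small subunit of rubisco) summed to between 95024 and 112588 TPM in LD libraries, against 61582 to 82522 TPM in SD libraries, a difference in the opposite direction to the 50 genes whose part in the results was not tested. Of 4 root nodule genes, 2 were at 0 in every library and the sum stayed between 0.880 and 5.01 TPM in LD and 0.306 and 3.16 TPM in SD, and none of 3 floral regulator genes reached 1 TPM in a library. In whole leaves, fewer cells of a type and less RNA per cell cannot be told apart.

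Across the 50 genes the median d was -1.63 at ZT0, -1.63 at ZT2 and -2.01 at ZT4, against medians of 0.02, 0.01 and -0.02 over the 31363 genes with a total count above 1. LD leaves held a median of 25.4% of the SD level at ZT0, 27.1% at ZT2 and 21.5% at ZT4. These values chose the genes and are given as a description. By themselves the thresholds were passed by 2.82% of the genes at ZT0, 1.57% at ZT2 and 3.54% at ZT4, and 0.163% passed at all times. At each time all 3 LD libraries lay below all 3 SD libraries for 50 of the 50, a separation that the rule largely fixes and that 12.1%, 13.3% and 26.8% of all genes showed at ZT0, ZT2 and ZT4. For 17 of the 50, every LD library of 9 lay below every SD library of 9, whatever the time, as in 0.309% of all genes.

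The difference was seldom the same size throughout. The lowest d fell at ZT0 for 22 genes, at ZT2 for 9 and at ZT4 for 19, and d spanned 2 or more between times in 11 genes but less than 0.5 in 7. The 50 transcripts summed to 1967 ± 328, 2086 ± 311 and 3512 ± 35.5 TPM in LD at the 3 times in order, against 10185 ± 1202, 8093 ± 846 and 10804 ± 170.3 TPM in SD (mean ± standard deviation, n = 3 libraries).

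**Figure D1:**
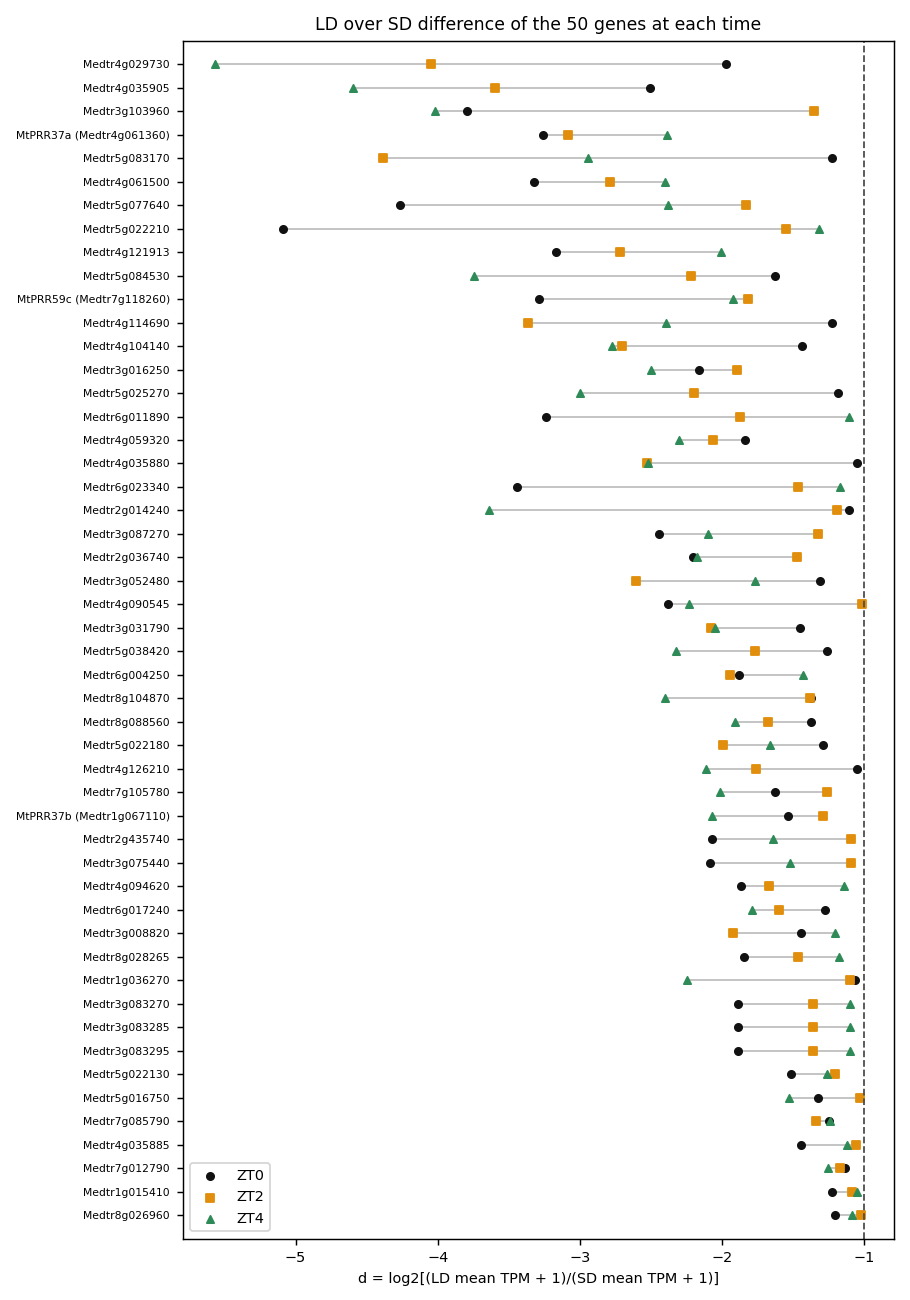
Each row is 1 of the 50 genes, ordered by mean d, and the x axis gives d at ZT0 (circles), ZT2 (squares) and ZT4 (triangles), with the threshold of -1 dashed. The leftmost point is Medtr4g029730 at ZT4, at -5.57, and the rows at the bottom hold their 3 points close together near the threshold.

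MtPRR37a (Medtr4g061360, chromosome 4) had the lowest mean d of the 4 annotated clock genes. It had 0.963, 0.851 and 1.06 TPM (ZT0), 5.08, 3.49 and 5.51 TPM (ZT2) and 24.8, 15.6 and 13.8 TPM (ZT4) in the LD libraries, against 21.8, 14.5 and 17.0 TPM (ZT0), 48.3, 41.3 and 52.4 TPM (ZT2) and 99.0, 99.9 and 98.0 TPM (ZT4) in SD. The LD level was 5.40% of the SD level at ZT0, 9.91% at ZT2 and 18.3% at ZT4, and each LD library lay below each SD library of the same time. Both photoperiods climbed through the morning. By edgeR's quasi-likelihood test the transcript rose between ZT0 and ZT2 by a log2 fold of 2.39 ± 0.20 (SE) in LD (adjusted p = 1.15e-08) and of 1.47 ± 0.16 in SD (adjusted p = 3.75e-07). From ZT2 to ZT4 it rose by a further 1.98 ± 0.17 in LD and 1.01 ± 0.16 in SD (adjusted p = 1.21e-08 and 3.35e-05). The LD leaves at ZT4 stood at 18.1 ± 5.89 TPM, beside SD leaves at ZT0 with 17.7 ± 3.72 TPM (mean ± standard deviation, n = 3). This pair, like the step from ZT2 to ZT4, crosses the experiments, which differ in plant age and library kit.

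MtPRR37b (Medtr1g067110, chromosome 1, annotated as an APRR7-like two-component response regulator) differed less between the photoperiods. It had 2.55, 2.66 and 2.43 TPM (ZT0), 8.07, 6.70 and 8.23 TPM (ZT2) and 17.5, 12.04 and 11.5 TPM (ZT4) in the LD libraries, against 10.5, 7.49 and 9.86 TPM (ZT0), 20.1, 18.2 and 22.0 TPM (ZT2) and 58.1, 62.1 and 61.9 TPM (ZT4) in SD. Its d values were -1.54, -1.29 and -2.07. The rise from ZT0 to ZT2 was 1.70 ± 0.14 in LD and 1.16 ± 0.12 in SD, and that from ZT2 to ZT4 was 0.88 ± 0.12 in LD and 1.51 ± 0.12 in SD on the log2 scale (all 4 with an edgeR adjusted p of at most 1.09e-05). LD leaves at ZT2, with 7.67 ± 0.841 TPM, stood beside SD leaves at ZT0, with 9.29 ± 1.59 TPM.

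MtPRR59c (Medtr7g118260, chromosome 7) was nearly undetected in LD at lights on. It had 0.306, 0.0993 and 0.0720 TPM (ZT0), 7.08, 6.23 and 9.39 TPM (ZT2) and 23.2, 15.2 and 14.2 TPM (ZT4) in the LD libraries, against 13.1, 7.38 and 10.5 TPM (ZT0), 29.5, 27.0 and 31.2 TPM (ZT2) and 69.4, 69.5 and 68.4 TPM (ZT4) in SD. LD leaves thus held 1.54% of the SD level at ZT0, 25.9% at ZT2 and 25.3% at ZT4. The rise in LD from ZT0 to ZT2, 5.67 ± 0.28 on the log2 scale (edgeR adjusted p = 6.33e-12), was the largest of the 50 genes at either step. In SD the same step gave 1.57 ± 0.16 (adjusted p = 1.08e-07). From ZT2 to ZT4 the rises were 1.28 ± 0.16 in LD and 1.20 ± 0.15 in SD. The difference between the LD and the SD change was not tested for any of the 3 PRR genes, since d, which chose them, is made of the same libraries.

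Medtr7g012790, annotated as a circadian clock coupling factor ZGT, differed less and at a nearly constant ratio. It had 5.54, 6.14 and 5.69 TPM (ZT0), 6.91, 4.36 and 6.85 TPM (ZT2) and 12.8, 10.5 and 10.0 TPM (ZT4) in the LD libraries, against 16.9, 11.7 and 13.2 TPM (ZT0), 14.9, 13.4 and 16.1 TPM (ZT2) and 27.1, 27.9 and 28.4 TPM (ZT4) in SD. Its d values, -1.14, -1.17 and -1.25, spanned little over the 3 times, and each LD triplet stayed below its SD triplet. Neither photoperiod passed the test from ZT0 to ZT2 (log2 fold 0.16 ± 0.15 in LD and 0.13 ± 0.12 in SD), while from ZT2 to ZT4 it rose by 0.88 ± 0.13 in LD and 0.82 ± 0.12 in SD (edgeR adjusted p = 2.95e-05 and 1.75e-05).

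Of the 50 genes, the one most like MtPRR37a across the 18 libraries was Medtr4g061500, which lies 6 identifiers further along in the files. Pearson's r between their log2(TPM + 1) values was 0.989, and Spearman's rho 0.971, a description over libraries that share photoperiod and time. Medtr4g061500 had 0.733, 0.376 and 0 TPM (ZT0), 4.24, 3.01 and 5.60 TPM (ZT2) and 18.3, 9.30 and 15.7 TPM (ZT4) in the LD libraries, against 14.1, 10.5 and 13.6 TPM (ZT0), 40.3, 23.0 and 43.2 TPM (ZT2) and 78.1, 92.7 and 71.4 TPM (ZT4) in SD. The ratio of its TPM to that of MtPRR37a had a median of 0.775 and ran from 0 to 1.14. Its count for a given TPM was 4.43% of that of MtPRR37a, which makes it a far shorter gene model, and its highest count was 277. Whether reads of one gene were assigned to the other by the transcript quantification was not tested. With at most 3 counts in each LD library at ZT0, it was at least 11.3-fold lower in LD there, the SD mean being set against a floor of 3 counts per library. That floor came to 1.13 TPM, by the most TPM that 1 count stood for in any LD library of the experiment. Next in likeness to MtPRR37a came Medtr8g026960 (r = 0.979), MtPRR59c (0.965), MtPRR37b (0.958) and Medtr7g012790 (0.944).

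Medtr8g026960 encodes a homeobox associated leucine zipper protein, a plant class of DNA-binding proteins. It had 0.609, 0.399 and 0.826 TPM (ZT0), 1.48, 1.26 and 1.47 TPM (ZT2) and 2.58, 2.12 and 3.07 TPM (ZT4) in the LD libraries, against 3.23, 2.11 and 2.80 TPM (ZT0), 4.44, 3.61 and 3.62 TPM (ZT2) and 7.11, 6.16 and 6.52 TPM (ZT4) in SD. It was the least changed of the 50 by mean d (-1.20, -1.02 and -1.08 at the 3 times), which the added 1 makes smaller in size at such low levels. Without the added 1, its LD level was 22.5%, 36.1% and 39.2% of the SD level. For Medtr1g015410 these shares were higher, at 41.8%, 46.2% and 47.6%. Medtr8g026960 rose at both steps in LD (log2 fold 1.37 ± 0.30 and then 1.06 ± 0.23) and in SD (0.61 ± 0.20 and then 0.84 ± 0.18). The first SD rise, with an edgeR adjusted p of 0.0286, was no longer past the threshold under 8 of 24 alternatives. Medtr7g105780 encodes an ovate transcriptional repressor. In LD, it stood at 12.9, 5.95 and 11.3 TPM (ZT0), 6.14, 5.34 and 6.62 TPM (ZT2) and 9.83, 7.59 and 7.66 TPM (ZT4), against 32.4, 30.2 and 37.0 TPM (ZT0), 19.0, 13.9 and 14.8 TPM (ZT2) and 39.2, 33.5 and 37.8 TPM (ZT4) in SD. It fell by 0.62 ± 0.20 in LD and 1.02 ± 0.17 in SD on the log2 scale from ZT0 to ZT2, a call lost under 4 of 24 alternatives in LD, and from ZT2 to ZT4 it had 0.52 ± 0.20 in LD (adjusted p = 0.0556) and rose by 1.17 ± 0.17 in SD (adjusted p = 1.88e-05).

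Medtr5g016750, an ethylene response factor gene, was flat in time. It had 12.9, 10.2 and 13.1 TPM (ZT0), 12.5, 10.2 and 15.2 TPM (ZT2) and 16.1, 8.17 and 9.36 TPM (ZT4) in the LD libraries, against 39.2, 24.7 and 31.6 TPM (ZT0), 25.8, 26.2 and 28.5 TPM (ZT2) and 32.3, 33.4 and 36.9 TPM (ZT4) in SD. No time step passed the edgeR test in either photoperiod, with adjusted p of 0.592 and 0.487 in LD and 0.453 and 0.341 in SD. With d at -1.33, -1.03 and -1.53, its ZT2 value was among the 3 nearest to the threshold.

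**Figure D2:**
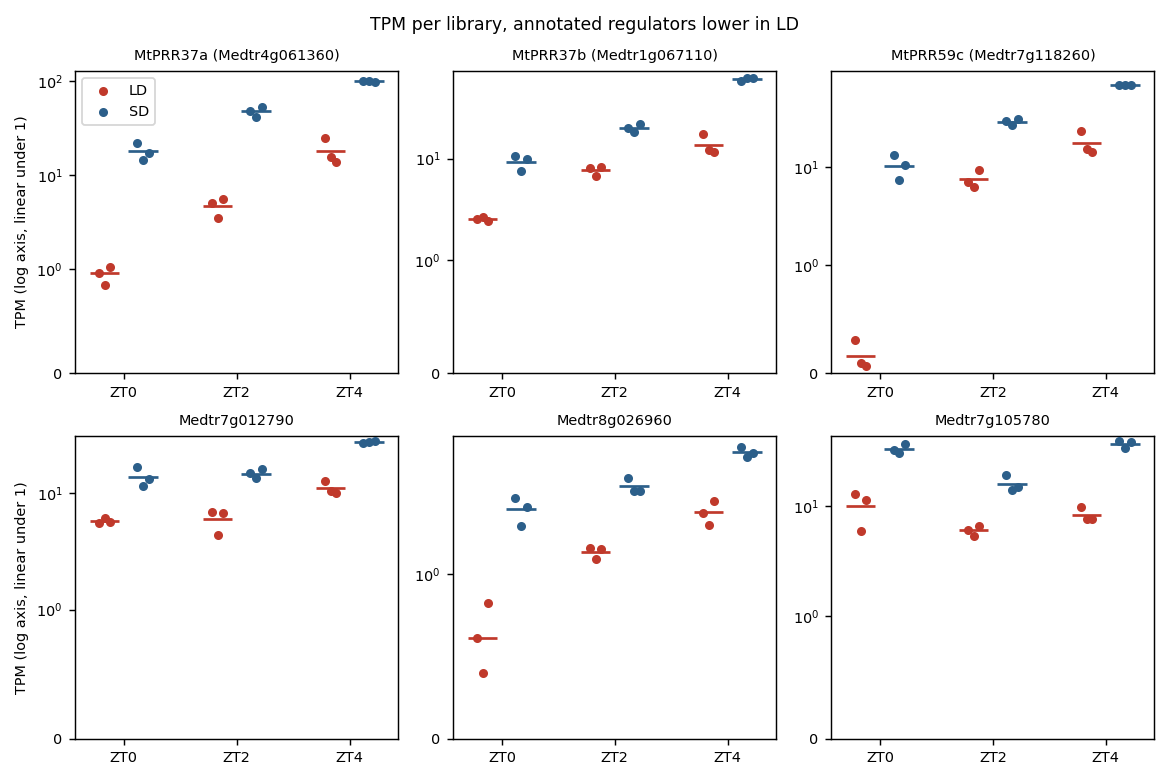
TPM of each library (points, with a bar at the mean of 3) for 6 annotated genes at ZT0, ZT2 and ZT4, LD in red left of SD in blue, on an axis that is logarithmic above 1 and linear under it. In each panel and at each time the LD points lie under the SD points, and MtPRR59c in LD at ZT0 is the only group of the 6 panels under 0.5 TPM in every library.

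The study listed clock and photoreceptor genes among its photoperiod candidates. The set used here held 27 genes, where the paper counts 24, as it includes MtGI, MtFKF1 and MtZTL. Of the 27, 3 were among the 50. The other 24 were not, and 22 of these had counts to test. At ZT0, 10 of them were lower in LD and 7 higher, where edgeR called 14.2% of all genes lower and 15.5% higher. At ZT2, 9 were lower and 6 higher (10.3% and 10.3% of all genes), and at ZT4, 17 were lower and 2 higher (16.9% and 12.4%). In all, 20 of the 22 passed at some time, 9 were higher at one time and lower at another, and 6 were lower at all 3 times, of which MtLUXb met the rule and was left out by name. The shares of all genes were not computed for these joint counts. The rule had taken 3 genes lower in LD at every time out of the list, so the directions among the rest are partly set by it.

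MtLUXb, of the evening complex, had means of 4.44, 9.30 and 7.96 TPM in LD and 12.1, 19.8 and 17.7 TPM in SD at ZT0, ZT2 and ZT4, with log2 folds of LD over SD of -1.53 ± 0.12, -1.13 ± 0.11 and -1.09 ± 0.11 (SE). MtGI (Medtr1g098160), also set aside by name, was lower at all 3 times, with log2 folds of -3.31 ± 0.25, -0.85 ± 0.11 and -1.78 ± 0.12, but its d of -0.62 at ZT0 and -0.78 at ZT2 did not meet the rule. Medtr3g008920, the third, had a d of 0.35 at ZT0 and did not meet it either. Chosen after their values were seen, the other PRR genes were MtPRR59a and MtPRR59b, with log2 folds of 0.30 ± 0.36, -2.27 ± 0.22 and -4.36 ± 0.19 for the first and -2.29 ± 0.19, -1.17 ± 0.13 and -2.06 ± 0.11 for the second. MtLHY, also chosen after its values were seen, had 291, 581 and 405 TPM in LD and 957, 378 and 58.9 TPM in SD at the 3 times, lower in LD at ZT0 and higher at ZT2 and ZT4 (log2 folds of -1.83 ± 0.17, 0.57 ± 0.17 and 2.84 ± 0.18).

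By level, the 50 genes spanned 2.31 to 3773 TPM as means over the 9 SD libraries, with a median of 41.4 TPM, against 8.05 TPM as the median over the 9 LD libraries. All 31363 genes had a median of 2.04 TPM in SD. With the constant that d adds to both means, genes of low SD mean at any time could not meet the rule. The higher SD median of the 50 is therefore partly set by the rule, and the lower LD median follows from it. These medians are given as a description only. The most abundant of the 50 was Medtr6g011890. It had 399, 558 and 343 TPM (ZT0), 549.6, 800.1 and 748 TPM (ZT2) and 1682, 2339 and 2458 TPM (ZT4) in the LD libraries, against 4189.9, 3759 and 4344 TPM (ZT0), 2783, 2564 and 2362 TPM (ZT2) and 4624, 4684 and 4643 TPM (ZT4) in SD. LD leaves held 10.6% of the SD level at ZT0, 27.2% at ZT2 and 46.4% at ZT4, and LD leaves rose at both steps while SD leaves fell at ZT2 and rose at ZT4.

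Medtr4g094620 had 466, 444 and 307 TPM (ZT0), 269, 304 and 380.1 TPM (ZT2) and 741, 407 and 338 TPM (ZT4) in the LD libraries, against 1781, 1097 and 1574 TPM (ZT0), 967, 865 and 1208 TPM (ZT2) and 1003, 1155 and 1132 TPM (ZT4) in SD. All its LD values stayed under its lowest SD value, 865 TPM. In LD, Medtr3g016250 stood at 546, 302 and 251 TPM (ZT0), 394, 329.6 and 555 TPM (ZT2) and 51.6, 36.9 and 5.70 TPM (ZT4), against 2089.6, 1878 and 964 TPM (ZT0), 2002, 1245 and 1506 TPM (ZT2) and 181, 226 and 141 TPM (ZT4) in SD. In both photoperiods Medtr3g016250 fell at ZT4, by 3.87 ± 0.44 in LD and 3.28 ± 0.39 in SD on the log2 scale against ZT2 (edgeR adjusted p = 7.36e-07 and 1.53e-06). Medtr5g084530 had 353, 401 and 279.9 TPM (ZT0), 229, 207 and 277 TPM (ZT2) and 102, 53.1 and 33.9 TPM (ZT4) in the LD libraries, against 1276, 930.2 and 989 TPM (ZT0), 1029, 894 and 1410.2 TPM (ZT2) and 795, 859 and 923 TPM (ZT4) in SD. Here only the LD leaves passed the test from ZT2 to ZT4, where the transcript fell by 1.98 ± 0.25 on the log2 scale (adjusted p = 2.92e-06), with -0.49 ± 0.24 in SD (adjusted p = 0.144). The difference between these changes was not tested. Without an annotation, none of these 4 abundant transcripts can be given a role.

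The lowest mean d belonged to Medtr4g029730. It had 4.996, 3.28 and 3.56 TPM (ZT0), 1.38, 0.734 and 0.365 TPM (ZT2) and 15.1, 7.38 and 2.30 TPM (ZT4) in the LD libraries, against 23.5, 21.0 and 10.6 TPM (ZT0), 31.6, 30.2 and 25.8 TPM (ZT2) and 443, 414 and 459 TPM (ZT4) in SD. LD leaves held 21.5% of the SD level at ZT0, 2.83% at ZT2 and 1.89% at ZT4. It rose from ZT2 to ZT4 by 3.14 ± 0.67 in LD and 3.73 ± 0.24 in SD on the log2 scale (edgeR adjusted p = 0.00111 and 2.98e-10), and the LD libraries at ZT4 spread from 2.30 to 15.1 TPM.

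Medtr5g083170 and Medtr4g114690 had steep morning rises. Medtr5g083170 had 4.08, 5.06 and 5.52 TPM (ZT0), 3.13, 11.9 and 4.52 TPM (ZT2) and 31.3, 62.1 and 36.8 TPM (ZT4) in the LD libraries, against 15.2, 9.94 and 13.2 TPM (ZT0), 198, 111 and 159 TPM (ZT2) and 369, 308 and 343 TPM (ZT4) in SD. From ZT0 to ZT2 its log2 fold was 0.55 ± 0.39 in LD (adjusted p = 0.342) and 3.66 ± 0.32 in SD (adjusted p = 2.13e-08), and from ZT2 to ZT4 it rose by 2.78 ± 0.33 in LD and 1.09 ± 0.28 in SD. Medtr4g114690 had 4.16, 7.83 and 4.02 TPM (ZT0), 25.4, 20.6 and 25.7 TPM (ZT2) and 57.6, 37.7 and 31.0 TPM (ZT4) in the LD libraries, against 14.3, 11.4 and 15.7 TPM (ZT0), 231, 231 and 304 TPM (ZT2) and 221, 223 and 232 TPM (ZT4) in SD. Here both rose from ZT0 to ZT2, by 2.26 ± 0.21 in LD and 4.26 ± 0.21 in SD. In LD, Medtr4g059320 stood at 24.7, 25.5 and 19.1 TPM (ZT0), 14.4, 9.90 and 22.1 TPM (ZT2) and 70.1, 43.0 and 40.8 TPM (ZT4), against 99.6, 66.1 and 90.2 TPM (ZT0), 75.6, 52.5 and 75.9 TPM (ZT2) and 252, 266 and 254 TPM (ZT4) in SD. Its d, -1.84, -2.07 and -2.30, was steadier, and it rose only from ZT2 to ZT4 (1.71 ± 0.21 in LD and 1.83 ± 0.19 in SD).

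A dip at ZT2 in SD marked 9 genes, which fell from ZT0 to ZT2 and rose from ZT2 to ZT4 in the edgeR test, a pattern called in 5.35% of all genes tested. Medtr3g103960 had 8.17, 4.30 and 11.2 TPM (ZT0), 1.11, 1.08 and 2.23 TPM (ZT2) and 5.16, 2.06 and 2.18 TPM (ZT4) in the LD libraries, against 158, 101 and 109 TPM (ZT0), 6.12, 5.41 and 4.44 TPM (ZT2) and 70.7, 66.8 and 60.3 TPM (ZT4) in SD. Its LD leaves fell by 2.33 ± 0.37 on the log2 scale (adjusted p = 4.83e-05), with 1.07 ± 0.40 at the second step (adjusted p = 0.0526), and its SD leaves fell by 4.47 ± 0.29 and then rose by 3.53 ± 0.29. Medtr2g014240 had 51.7, 44.6 and 65.8 TPM (ZT0), 3.64, 3.36 and 6.29 TPM (ZT2) and 36.7, 9.50 and 10.2 TPM (ZT4) in the LD libraries, against 168, 82.4 and 102 TPM (ZT0), 11.2, 10.1 and 12.8 TPM (ZT2) and 211, 260.3 and 265 TPM (ZT4) in SD. The ZT2 values lay below those of both other times in every library of either photoperiod. In LD, Medtr4g104140 stood at 12.5, 15.6 and 20.7 TPM (ZT0), 3.28, 3.10 and 3.02 TPM (ZT2) and 16.0, 14.0 and 6.80 TPM (ZT4), against 46.7, 47.0 and 43.7 TPM (ZT0), 25.4, 21.0 and 31.3 TPM (ZT2) and 93.2, 85.7 and 90.4 TPM (ZT4) in SD. The LD dip of Medtr4g104140 (-2.28 ± 0.24) stood beside an SD change of -0.80 ± 0.20 from ZT0 to ZT2, both past the threshold. Medtr3g103960 has the identifier next to that of MtELF3a (Medtr3g103970), which was higher in LD at ZT0, with 8.38 TPM in LD and 0.583 TPM in SD.

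Opposite changes from ZT0 to ZT2 were called in 4 of the 50 genes, which rose in LD and fell in SD, as 0.788% of all genes did. In 3 of them the libraries of ZT2 and ZT0 did not overlap in either photoperiod, against 1.63% of all genes with such opposite calls in one direction or the other. Medtr5g022210 had 9.85, 9.74 and 7.38 TPM (ZT0), 22.5, 25.0 and 37.2 TPM (ZT2) and 45.1, 31.4 and 35.2 TPM (ZT4) in the LD libraries, against 386, 309 and 323 TPM (ZT0), 93.4, 75.8 and 84.7 TPM (ZT2) and 105, 92.7 and 84.6 TPM (ZT4) in SD. Its log2 fold was 1.75 ± 0.18 in LD and -1.96 ± 0.15 in SD, and LD leaves held 2.65% of the SD level at ZT0 but 33.3% at ZT2. Medtr5g077640 had 0, 1.47 and 1.41 TPM (ZT0), 5.47, 4.98 and 4.95 TPM (ZT2) and 16.4, 10.6 and 16.6 TPM (ZT4) in the LD libraries, against 37.7, 36.2 and 36.3 TPM (ZT0), 29.7, 16.9 and 16.0 TPM (ZT2) and 72.3, 86.3 and 80.1 TPM (ZT4) in SD. The log2 fold of Medtr5g077640 was 2.49 ± 0.51 in LD and -0.78 ± 0.22 in SD, where the call was lost without replicate 3 of SD at ZT2 (-0.62, edgeR adjusted p = 0.0704). In LD, Medtr6g023340 stood at 11.4, 8.39 and 9.10 TPM (ZT0), 15.1, 13.6 and 14.6 TPM (ZT2) and 5.29, 6.23 and 3.24 TPM (ZT4), against 127, 132 and 85.7 TPM (ZT0), 49.0, 35.7 and 40.1 TPM (ZT2) and 15.2, 11.5 and 10.1 TPM (ZT4) in SD. The changes of Medtr6g023340 were 0.74 ± 0.21 and -1.43 ± 0.19, and those of Medtr6g011890, the most abundant transcript, 0.79 ± 0.17 in LD and -0.62 ± 0.17 in SD, where the LD libraries of ZT2 and ZT0 overlapped.

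**Figure D3:**
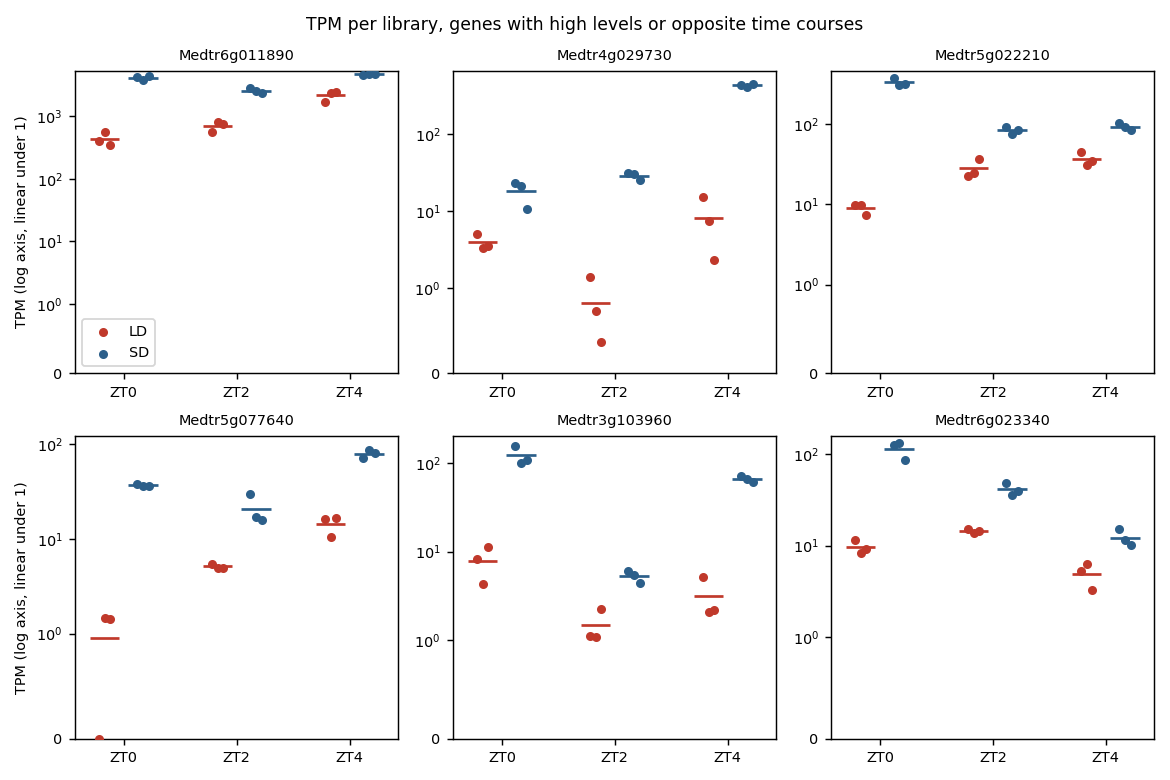
TPM of each library (points, with a bar at the mean of 3) at ZT0, ZT2 and ZT4 for 6 genes of high level, large difference or opposite time courses, LD in red left of SD in blue, on an axis logarithmic above 1. Medtr6g011890 reaches 4684 TPM in SD at ZT4, and Medtr5g022210 has its highest points in SD at ZT0 and its lowest in LD at ZT0.

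Local runs, at most 5 identifiers apart, were formed by 9 of the 50 genes. Medtr3g083270, Medtr3g083285 and Medtr3g083295 had the same values in every library to within 0.0048 counts, so the 50 genes hold 48 separate profiles. How the quantification assigned reads among them was not tested. Medtr3g083270 had 0.706, 2.69 and 0 TPM (ZT0), 3.57, 3.07 and 6.32 TPM (ZT2) and 13.8, 8.39 and 7.31 TPM (ZT4) in the LD libraries, against 7.53, 5.62 and 7.54 TPM (ZT0), 14.0, 10.6 and 13.3 TPM (ZT2) and 20.6, 23.5 and 22.6 TPM (ZT4) in SD. One LD library at ZT0 was at 0, and LD lay below SD at each time. Medtr4g035880, Medtr4g035885 and Medtr4g035905, the second run, were not alike in level. Medtr4g035880 had 16.1, 14.8 and 19.4 TPM (ZT0), 18.5, 18.3 and 23.0 TPM (ZT2) and 84.7, 47.3 and 36.7 TPM (ZT4) in the LD libraries, against 41.7, 27.9 and 37.8 TPM (ZT0), 125, 108 and 126 TPM (ZT2) and 320.3, 328 and 332 TPM (ZT4) in SD. This one climbed most towards ZT4. In LD, Medtr4g035885 stood at 1.32, 1.96 and 1.85 TPM (ZT0), 2.54, 2.13 and 3.05 TPM (ZT2) and 6.40, 2.68 and 3.63 TPM (ZT4), against 8.17, 4.94 and 5.99 TPM (ZT0), 7.06, 4.81 and 7.44 TPM (ZT2) and 9.47, 11.6 and 10.1 TPM (ZT4) in SD. Medtr4g035905 had 15.8, 7.97 and 17.5 TPM (ZT0), 3.58, 2.33 and 4.78 TPM (ZT2) and 4.70, 2.89 and 2.21 TPM (ZT4) in the LD libraries, against 111, 62.4 and 75.4 TPM (ZT0), 60.9, 39.9 and 61.5 TPM (ZT2) and 94.7, 104 and 108 TPM (ZT4) in SD. Medtr4g035905 fell from ZT0 to ZT2 in LD by 1.85 ± 0.30 on the log2 scale (adjusted p = 6.31e-05), while Medtr4g035880 rose in both photoperiods at ZT4 (1.49 ± 0.19 in LD and 1.36 ± 0.18 in SD) and Medtr4g035885 passed at no step. Between them in the files lie Medtr4g035890, Medtr4g035895 and Medtr4g035900, whose means stayed at or under 1.15 TPM.

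The third run joined Medtr5g022210 to Medtr5g022130 and Medtr5g022180, which have adjoining identifiers. Medtr5g022130 had 9.51, 6.82 and 7.64 TPM (ZT0), 6.64, 8.05 and 11.6 TPM (ZT2) and 7.49, 5.62 and 4.50 TPM (ZT4) in the LD libraries, against 28.8, 20.4 and 24.8 TPM (ZT0), 19.9, 19.2 and 25.3 TPM (ZT2) and 14.1, 15.4 and 16.9 TPM (ZT4) in SD. Medtr5g022180 had 6.11, 3.92 and 6.73 TPM (ZT0), 6.61, 6.89 and 9.45 TPM (ZT2) and 4.75, 5.002 and 5.23 TPM (ZT4) in the LD libraries, against 15.4, 15.8 and 14.0 TPM (ZT0), 31.7, 27.3 and 41.5 TPM (ZT2) and 17.6, 16.9 and 19.2 TPM (ZT4) in SD. The LD and SD libraries of these genes did not overlap at any time. Both fell from ZT2 to ZT4 in LD and in SD (log2 folds of -0.61 ± 0.20 and -0.59 ± 0.17 for Medtr5g022130, and -0.65 ± 0.20 and -1.03 ± 0.16 for Medtr5g022180). The fall of Medtr5g022130 was lost under 5 of 23 alternatives in LD and 3 of 23 in SD, and that of Medtr5g022180 under 3 of 23 in LD. In LD, Medtr5g022130 had -0.34 without replicate 3 at ZT2 (edgeR adjusted p = 0.244), -0.58 and -0.48 without replicate 2 or 3 at ZT4, and -0.56 without replicate 2 of SD at ZT4. In SD it had -0.47 without replicate 3 at ZT2 and -0.53 without replicate 1 at ZT4. Medtr5g022180 had -0.45 in LD without replicate 3 at ZT2 (edgeR adjusted p = 0.134) and -0.59 without replicate 1 at ZT4. For Medtr5g022210 neither photoperiod passed at that step.

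Low counts limited a few of the genes. Medtr6g004250 had at most 2 counts in any LD library. In LD, it stood at 0.360, 0 and 0 TPM (ZT0), 0.694, 0.742 and 0.732 TPM (ZT2) and 0.298, 0 and 0 TPM (ZT4), against 4.67, 3.23 and 1.45 TPM (ZT0), 5.12, 5.53 and 6.21 TPM (ZT2) and 2.17, 0.979 and 2.73 TPM (ZT4) in SD. Against the same floor of 3 counts per library, it was at least 2.80-fold lower in LD at ZT0, 5.05-fold at ZT2 and 2.19-fold at ZT4. Medtr1g036270 had 0.116, 0.0445 and 0 TPM (ZT0), 1.52, 0.743 and 1.12 TPM (ZT2) and 2.07, 0.806 and 0.769 TPM (ZT4) in the LD libraries, against 1.11, 0.828 and 1.66 TPM (ZT0), 3.37, 3.78 and 3.53 TPM (ZT2) and 10.6, 8.18 and 9.69 TPM (ZT4) in SD. Its LD libraries at ZT0 held at most 3 counts, which makes it at least 8.99-fold lower there, and its fitted LD rise to ZT2 (4.51 ± 0.64) starts from that floor. In LD, Medtr4g121913 stood at 4.63, 2.62 and 0.514 TPM (ZT0), 0.495, 1.05 and 8.94 TPM (ZT2) and 5.22, 0.428 and 0 TPM (ZT4), against 44.3, 15.3 and 33.9 TPM (ZT0), 20.4, 35.9 and 29.5 TPM (ZT2) and 6.33, 13.4 and 11.99 TPM (ZT4) in SD. Medtr4g121913 reached at most 17 counts in LD, and its replicates spread widely, with 2.59 ± 2.06, 3.50 ± 4.72 and 1.88 ± 2.90 TPM at ZT0, ZT2 and ZT4 in LD, against 31.2 ± 14.7, 28.6 ± 7.76 and 10.6 ± 3.76 TPM in SD (mean ± standard deviation, n = 3).

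At the threshold itself, the 3 genes just inside by their highest d were Medtr5g016750 (-1.03), Medtr8g026960 (-1.02) and Medtr4g090545 (-1.01). Just outside lay Medtr5g081880, with a highest d of -0.998, Medtr7g075600 with -0.996 and Medtr2g014450 with -0.994. Medtr4g090545 had 18.3, 6.67 and 9.76 TPM (ZT0), 11.2, 13.7 and 23.7 TPM (ZT2) and 0.549, 3.24 and 2.11 TPM (ZT4) in the LD libraries, against 75.8, 43.8 and 73.7 TPM (ZT0), 36.5, 26.4 and 38.4 TPM (ZT2) and 12.4, 16.4 and 9.99 TPM (ZT4) in SD. Its d, -2.38, -1.01 and -2.23, was close to the threshold at ZT2 alone. The 17 genes outside the rule for naming had mean d from -2.13 to -1.12, and their SD means ran from 2.31 to 135 TPM.

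Of these 17, taken after their values were seen, 15 are given here by their means at ZT0, ZT2 and ZT4, and Medtr6g023340 and Medtr6g004250 above. Several had their highest means at ZT4. Medtr5g025270 had 11.7, 19.8 and 28.4 TPM in LD, against 27.8, 94.5 and 234 TPM in SD. The means of Medtr3g052480 were 1.96, 1.96 and 14.9 TPM in LD, against 6.32, 17.0 and 53.1 TPM in SD. For Medtr5g038420 they came to 3.73, 3.32 and 11.5 TPM in LD, against 10.3, 13.7 and 61.4 TPM in SD, and in all these genes the SD leaves rose at both steps. Medtr3g031790 averaged 1.44, 10.1 and 17.7 TPM in LD, against 5.66, 46.1 and 76.3 TPM in SD. Medtr8g088560 averaged 1.18, 1.77 and 3.44 TPM in LD, against 4.65, 7.87 and 15.7 TPM in SD. Medtr6g017240 stood at 10.3, 8.44 and 18.5 TPM in LD, against 26.5, 27.6 and 66.2 TPM in SD. Its LD leaves at ZT4 remained below its SD leaves at ZT0, groups that also differ in plant age and library kit. In Medtr4g126210, with 3.60, 2.96 and 3.86 TPM in LD, against 8.50, 12.5 and 20.1 TPM in SD, LD leaves passed at neither step and SD leaves rose at both, a difference that was not tested. Medtr1g015410 kept a nearly constant ratio, with 22.9, 24.2 and 39.2 TPM in LD, against 54.8, 52.4 and 82.4 TPM in SD.

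Others dipped or declined. Medtr2g036740 averaged 11.7, 10.6 and 14.6 TPM in LD, against 57.5, 31.1 and 69.4 TPM in SD. Medtr2g435740 averaged 16.6, 9.25 and 51.7 TPM in LD, against 72.9, 20.9 and 164 TPM in SD, and both had their lowest SD mean at ZT2. The means of Medtr3g087270, a weak transcript, were 0.588, 1.04 and 0.993 TPM in LD, against 7.62, 4.12 and 7.55 TPM in SD. Medtr3g075440 had 11.3, 9.39 and 5.76 TPM in LD, against 51.2, 21.2 and 18.4 TPM in SD, with its highest means at ZT0 in both photoperiods. Medtr8g104870 stood at 81.3, 38.6 and 16.6 TPM in LD, against 212, 102 and 91.9 TPM in SD. It was the 1 gene of the 50 that fell at both steps in LD, as 2.21% of all genes did. Medtr7g085790 had 4.45, 3.87 and 2.20 TPM in LD, against 11.9, 11.3 and 6.54 TPM in SD. The weakest of the 50, Medtr8g028265, had 0.154, 0.155 and 0.142 TPM in LD, against 3.15, 2.20 and 1.58 TPM in SD, and passed at no step.

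The changes between sampling times were not what chose the genes, although they use the same libraries. From ZT0 to ZT2 in LD, 17 of the 50 rose and 6 fell, where 11.4% of all genes rose and 13.0% fell. In SD, 17 rose and 14 fell, against 17.8% and 17.5% of all genes. Restricted to the 15189 genes at or above the lowest SD mean of the 50, the share that rose was 19.6% in LD and 30.7% in SD, beside 34% of the 50 in each. The share of the 15189 that fell was 21.2% in LD and 26.0% in SD, beside 12% and 28% of the 50. With the 3 equal-valued genes Medtr3g083270, Medtr3g083285 and Medtr3g083295 counted once, 15 of 48 rose in LD and 17 of 48 in SD. Both photoperiods rose together in 10 genes and fell together in 5, against 7.45% and 7.81% of all genes, and in 15 neither passed, against 57.6%. These joint shares were not computed for the 15189 genes. Medtr3g008820 had 2.25, 3.01 and 4.29 TPM (ZT0), 35.9, 26.0 and 25.6 TPM (ZT2) and 92.7, 93.6 and 84.3 TPM (ZT4) in the LD libraries, against 10.0, 8.75 and 12.4 TPM (ZT0), 121, 113 and 106 TPM (ZT2) and 213, 201 and 214 TPM (ZT4) in SD. The first-step rise of Medtr3g008820, 3.35 ± 0.18 in LD, stood beside one of 3.51 ± 0.15 in SD, among the 3 largest there (adjusted p = 1.30e-11 and 5.23e-13).

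From ZT2 to ZT4 more of the 50 genes rose than fell. In LD 27 rose and 8 fell, where 9.30% of all genes rose and 12.3% fell. In SD 29 rose and 8 fell, against 17.6% and 14.7%. With the equal-valued Medtr3g083270, Medtr3g083285 and Medtr3g083295 counted once, 25 of 48 rose in LD and 29 of 48 in SD. The LD rise of these 3 genes was lost under 16 of 23 alternatives. Among the 15189 genes at or above the lowest SD mean of the 50, 14.8% rose and 20.6% fell in LD. In SD the shares were 27.2% and 23.2%. That set has a lower bound only and is not matched to the 50 in level. The median log2 fold of the 50 was 0.81 in LD and 0.83 in SD, against 0 and 0.02 over all genes. At this step 22 rose and 6 fell in both photoperiods, where 5.44% and 7.11% of all genes did so, and none rose in one and fell in the other, against 1.41% of all genes. For the 15189 genes the joint shares were not computed. Without replicate 3 of LD at ZT2, the count that fell in LD was 5 in place of 8. This step crosses from experiment 1 to experiment 2, so time, plant age and library kit cannot be told apart in it.

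Over both steps, 6 genes rose each time in LD and in SD: MtPRR37a, MtPRR37b, MtPRR59c, Medtr4g061500, Medtr8g026960 and Medtr3g008820. Of all genes tested, 0.813% did so. Of the 50, 47 passed in at least 1 of the 4 contrasts, against 55.7% of all genes, and Medtr4g035885, Medtr5g016750 and Medtr8g028265 in none. All genes tested had a median of 2.04 TPM in SD, against 41.4 TPM for the 50, and these shares were not computed at like levels. The highest mean fell at ZT4 for 31 genes in LD and 33 in SD, at ZT2 for 10 and 4, and at ZT0 for 9 and 13. LD and SD shared the time of the highest mean in 34. For the time of the highest mean, the shares of all genes were not computed. ZT4 also differs from the other times in experiment, plant age and library kit.

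**Figure D4:**
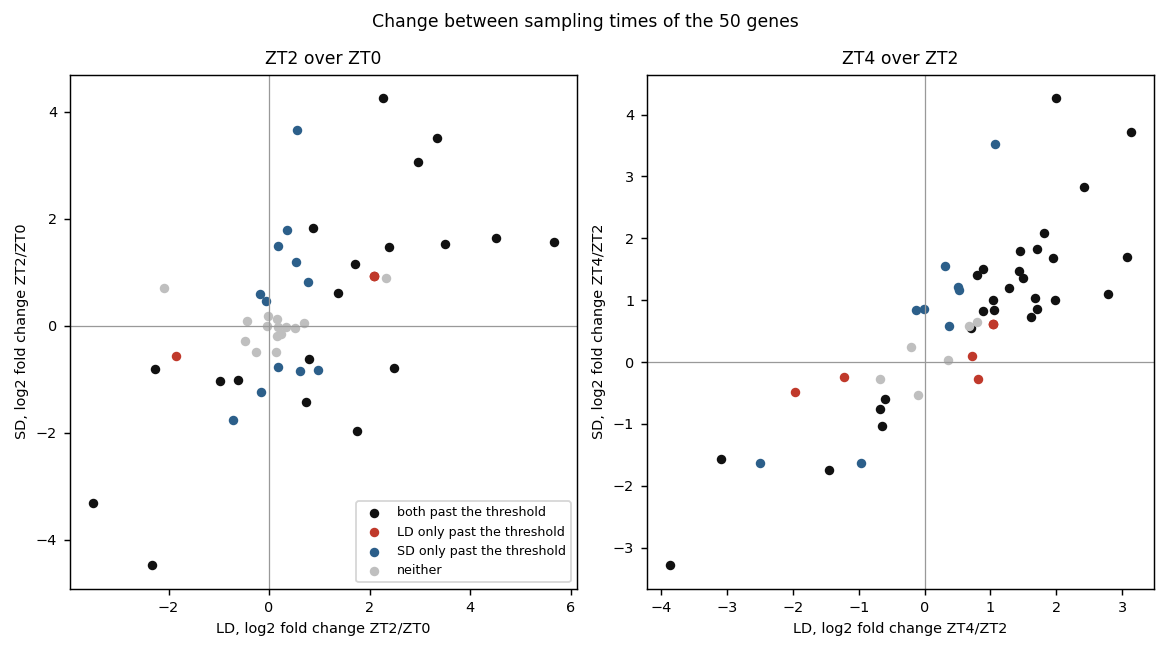
The log2 fold change between sampling times of each of the 50 genes, LD on the x axis and SD on the y axis, ZT2 over ZT0 on the left and ZT4 over ZT2 on the right, coloured by which photoperiod passed an edgeR adjusted p of 0.05. On the left 4 black points lie to the right of 0 and below it, and on the right 22 black points lie in the upper right.

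The 50 genes also varied together between replicates. Replicate 1 of LD at ZT4 lay above its group mean for 45 of the 50, with a median deviation of 0.42 in log2(TPM + 1), and replicate 3 lay above for 8, with a median of -0.28. Over 18212 genes at 1 TPM or more in SD, 62.1% and 38.7% lay above in those libraries, with medians of 0.05 and -0.04. In SD at ZT0, replicate 1 was above for 45 and replicate 2 for 7, with medians of 0.20 and -0.23. Over all these genes 72.9% and 15.3% were above in the same libraries, with medians of 0.08 and -0.14. The count for replicate 2 was thus near the share of all these genes. In SD at ZT4 the 3 medians stayed between 0.003 and 0.009. The median correlation between the deviations of 2 of the 48 separate profiles was 0.35, against 0.17 over all pairs of the 18212 genes, a description of genes that share libraries. Without replicate 1 of LD at ZT4, 52 genes met the rule, 49 of them among the 50, and 21 in place of 27 rose from ZT2 to ZT4 in LD. That drop was not particular to this library. Without replicate 1 of LD at ZT2 the count was also 21, and over all single libraries left out it ran from 21 to 30.

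**Figure D5:**
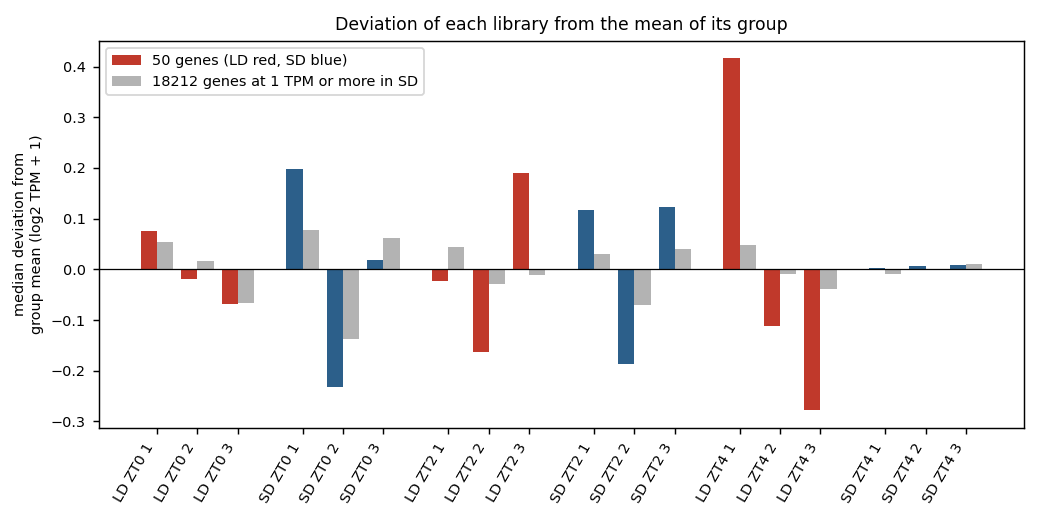
Median deviation of each library from the mean of its group, in log2(TPM + 1), for the 50 genes (LD red, SD blue) and for 18212 genes at 1 TPM or more in SD (grey). The tallest bar, 0.42, is replicate 1 of LD at ZT4, and the SD bars at ZT4 are near 0.

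By their identifiers, 13 of the 50 lay on chromosome 4, 10 on chromosome 3 and 9 on chromosome 5, that is 26%, 20% and 18% of them, where these chromosomes hold 15.6%, 13.6% and 11.2% of the genes tested. Chromosomes 6, 7 and 8 held 4 each, and chromosomes 1 and 2 held 3 each. None came from an unplaced scaffold. Chromosome 3 counts its 3 equal-valued genes separately, and chromosomes 4 and 5 each hold a local run of 3 genes. Whether these shares differ from those of the genes tested was not tested.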

How the data were processed

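Leaf RNA-seq libraries (18, in 6 groups of 3) were grouped by photoperiod and time from the sample titles. The authors trimmed the reads, quantified them against the Mt4.0v2 transcriptome with Salmon 0.8.2 (version per the submitters' processing notes) and summed transcripts per gene, and they deposited estimated counts and TPM. Here the TPM chose the genes, and the estimated counts, rounded, were tested with edgeR 4.0.16 (quasi-likelihood, TMM, total count above 1, R 4.3.3) in 1 fit of the 6 groups. p-values were adjusted with the Benjamini-Hochberg method over all genes and the 4 time contrasts together, or the 3 photoperiod contrasts, with a threshold of 0.05. Alternatives were DESeq2 1.42.0, RLE factors, another filter, experiment 1 alone, a replicate block, adjustment within each contrast and leaving out libraries. On simulated data the fit of ZT2 against ZT0 in SD, over 31363 genes, recovered 68 of 100 genes at 2-fold and 96 of 100 at 4-fold, with 6 false calls. Floors cover counting error only. Named genes were those in the study's candidate tables or results text, the 10 lowest by mean d, the 10 highest by SD mean, those nearest to the threshold, those in local runs, and the 3 largest rises and falls from ZT0 to ZT2 in each photoperiod. The members and gene lists were chosen with earlier results of these data known. Keyword groups of annotations could be read for 7 of 50 genes only: 4 in the clock group, 3 among transcription factors and 1 of these also among hormone genes, with 0 in the other 8 groups. The annotations came from the study's candidate tables and results text. The group counts follow that choice of genes and do not describe the 50. Replicates were leaves of different plants.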

Additional observations from a re-analysis of the deposited data

Results flagged for a closer look

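In 3 of the 50 genes the change from ZT0 to ZT2 ran in opposite directions in LD and SD, with no overlap between the libraries of ZT2 and ZT0 in either photoperiod. Of all genes tested, 1.63% did so. Medtr5g022210 rose by a log2 fold of 1.75 ± 0.18 (SE) in LD and changed by -1.96 ± 0.15 in SD. For Medtr5g077640 the log2 folds were 2.49 ± 0.51 in LD and -0.78 ± 0.22 in SD. Medtr6g023340 had 0.74 ± 0.21 in LD and -1.43 ± 0.19 in SD. The difference between the photoperiods was not tested, since it is made of the d values that chose the genes. One LD library of Medtr5g077640 at ZT0 was at 0 TPM.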

How the results depend on the processing

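The number of genes that met the rule followed the pseudocount and the threshold: 133 genes at a pseudocount of 0.1, 17 at a pseudocount of 5 and 10 at a threshold of -1.5, against 50. With a pseudocount of 5 or the stricter threshold, all those that remained were among the 50, and with 0.1 all 50 were included. TMM-scaled CPM gave 50 genes, of which 39 were shared. Leaving out each of the 18 libraries, or each replicate number in turn, gave 44 to 55 genes. The members changed more than the count. Without replicate 1, 2 or 3 of every group, 50, 54 and 45 genes met the rule, of which 39, 43 and 41 were among the 50. The median of replicates in place of the mean gave 51 genes, of which 43 were shared. Leaving out single libraries moved the count that fell from ZT2 to ZT4 in LD between 5 and 9. The replicate numbers did not pair the libraries (correlations of same-numbered deviations from -0.263 to 0.183), and with a replicate block 24 genes changed from ZT0 to ZT2 in LD, in place of 23, and 32 in SD, in place of 31. No other count of genes moved by more than 1.5 times, and no d or called change of a named gene reversed. In size, 74 d values of named genes were marked as moved across the alternatives and 916 as the same. Among their time changes, 90 were weaker, 68 stronger and 2944 the same. The rise of Medtr3g083270, Medtr3g083285 and Medtr3g083295 from ZT2 to ZT4 in LD was lost under 16 of 23 alternatives. With the replicate block the falls of Medtr5g022130 from ZT2 to ZT4 were -0.49 in LD and -0.47 in SD and that of Medtr5g022180 in LD was -0.61, none past the threshold. Genes at a few counts in LD are limited by depth.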

Other observations

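As many genes, 50, stood higher in LD at every time (d of 1 or more), with a median of 36.6 TPM over the LD libraries and 4.47 TPM over the SD libraries. From ZT2 to ZT4 in LD, 3 of these rose and 15 fell, where 9.30% of all genes rose and 12.3% fell. In SD 3 rose and 14 fell, against 17.6% and 14.7%. From ZT0 to ZT2 in LD, 6 rose and 10 fell, against 11.4% and 13.0% of all genes. In SD 5 rose and 7 fell, against 17.8% and 17.5%. By identifier, 14 of the genes higher in LD lay on chromosome 2, where 3 of the 50 genes lower in LD lay. This chromosome holds 11.3% of the genes tested.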
